A study of Homo sapiens with 18 samples.

Results

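The Notch pathway genes described here are 10 of the 39368 genes counted. They are the receptors NOTCH1, NOTCH2 and NOTCH3, the ligands DLL1, DLL3 and JAG1, the coactivator MAML2, the effectors HES1 and HEY1, and HES6 of the HES family. They were chosen by name as members of the pathway, with earlier results of these data known. Each was found by its gene symbol in both count tables. RNA-seq was done on 2 neuroblastoma cell lines with MYCN amplification, BE2C and Kelly, to ask what loss of the aryl hydrocarbon receptor (AhR, gene AHR), a ligand-activated transcription factor, does to their expression. Each line had 3 libraries with the AhR shRNA labelled shAhR-1, 3 with the AhR shRNA labelled shAhR-2 and 3 labelled pLKO-GFP, the vector control, which makes 18 libraries in 6 groups. No drug, dose or time is labelled, and nothing in the labels says that replicate libraries are separate cultures, so the p-values reflect library-to-library spread alone, which may be technical. BE2C is a clonal subline, and both lines were grown and sequenced in bulk.

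In Notch signalling, a ligand on one cell binds a receptor on its neighbour, and ADAM proteases and gamma-secretase then release the receptor's intracellular domain. In the nucleus this domain joins the DNA-binding protein RBPJ and a Mastermind-like coactivator and switches on genes of the HES and HEY families. The genes it switches on encode basic helix-loop-helix repressors of proneural factors. In neuroblastoma cell lines, forced expression of the NOTCH3 intracellular domain is known to move adrenergic cells towards a mesenchymal state, and MAML2 belongs to the genes associated with that state.

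Libraries held 32799682 to 45469353 counts over genes. AHR was close to the limit of detection: it had 8, 0 and 0 counts in the BE2C shAhR-1 libraries, 0, 0 and 0 in BE2C shAhR-2 and 4, 4 and 6 in BE2C pLKO-GFP, and 18, 11 and 22 in the Kelly libraries labelled shAhR-1, 0, 4 and 0 in Kelly shAhR-2 and 4, 26 and 29 in Kelly pLKO-GFP. In BE2C the filter on low counts removed AHR, so its loss was not tested there. The BE2C shAhR-1 library with 8 counts lay above all BE2C controls. AHR in the Kelly libraries labelled shAhR-1 overlapped their controls and was not called (log2 fold change -0.10 ± 0.54, adjusted p = 0.889), and their values are given below under that label. All 12 markers of adrenergic neuroblastoma cells were detected in every group. One library stood apart from its group: BE2C shAhR-2 replicate 1 differed from the other 2 replicates with a chi-square per degree of freedom of 20.9 and 22.8, against 3.52 between those 2, and mitochondrially encoded genes held 25.1% of its counts, against 20.5% in each of the others. That share was 24.3% to 24.9% in BE2C shAhR-1 and 18.8% to 19.4% in BE2C pLKO-GFP, and 17.4% to 17.7% in the Kelly libraries labelled shAhR-1, 15.2% to 15.8% in Kelly shAhR-2 and 14.5% to 15.6% in Kelly pLKO-GFP, and with these genes left out all 87 tested fold changes of the members kept their direction and their call. In bulk RNA, fewer cells of a type and less RNA per cell cannot be told apart.

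The genes are protein-coding and were placed on GRCh38 by GENCODE release 29. The receptors lie on the minus strand at chr9:136494433-136545786 (NOTCH1), chr1:119911553-120069626 (NOTCH2) and chr19:15159038-15200981 (NOTCH3). Of the ligand genes, DLL1 lies at chr6:170282206-170306565 and JAG1 at chr20:10637684-10673999 on the minus strand, and DLL3 at chr19:39498895-39508481 on the plus strand. MAML2 spans chr11:95976598-96343180 on the minus strand. Of the HES genes, HES1 lies at chr3:194136145-194138732 on the plus strand and HES6 at chr2:238238267-238240662 on the minus strand. Genes on the other strand share 8.97% of the exonic bases of MAML2 and 0.850% of those of JAG1, and whether reads were counted by strand is not given in the sources used here. NOTCH2 has near-identical partial copies, the NOTCH2NL genes, so its counts are uncertain. NOTCH2NLA and NOTCH2NLB were at 0 in all 18 libraries, and NOTCH2NLC had 0, 6 and 0 counts in BE2C shAhR-1, 8, 19 and 10 in BE2C shAhR-2 and 6, 2 and 0 in BE2C pLKO-GFP.

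Promoter sequence was at hand for 7 of the 10 genes, from RefSeq on GRCh38.p14, and DLL1, DLL3 and HEY1 were not in that table. The 250 bases before the RefSeq start of 4 genes are printed 5′ to 3′ on the strand of the gene, because HES1 is a well-known direct target of the RBPJ complex, NOTCH1 and NOTCH3 encode receptors that differed between the lines' controls, and HES6 changed in the direction opposite to HES1 in BE2C. Capitals mark TGGGAA and TGTGAA, the core letters bound by RBPJ, on either strand. HES1 is shown for chr3:194135898-194136147, plus strand, NOTCH1 for chr9:136546049-136546298, NOTCH3 for chr19:15200996-15201245 and HES6 for chr2:238240039-238240288, all minus strand. The windows end at the RefSeq start, which for HES6 lies inside the GENCODE gene span given above, so that its window lies within that span.
HES1: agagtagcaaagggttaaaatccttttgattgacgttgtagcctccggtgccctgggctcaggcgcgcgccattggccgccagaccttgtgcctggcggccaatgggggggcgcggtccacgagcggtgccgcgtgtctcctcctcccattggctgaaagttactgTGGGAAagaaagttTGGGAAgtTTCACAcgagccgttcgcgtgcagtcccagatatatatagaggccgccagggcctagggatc
NOTCH1: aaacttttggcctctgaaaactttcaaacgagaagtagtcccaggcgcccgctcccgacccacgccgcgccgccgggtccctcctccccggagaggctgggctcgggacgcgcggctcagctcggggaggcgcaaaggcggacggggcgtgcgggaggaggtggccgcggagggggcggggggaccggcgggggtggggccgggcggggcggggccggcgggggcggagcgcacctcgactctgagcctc
NOTCH3: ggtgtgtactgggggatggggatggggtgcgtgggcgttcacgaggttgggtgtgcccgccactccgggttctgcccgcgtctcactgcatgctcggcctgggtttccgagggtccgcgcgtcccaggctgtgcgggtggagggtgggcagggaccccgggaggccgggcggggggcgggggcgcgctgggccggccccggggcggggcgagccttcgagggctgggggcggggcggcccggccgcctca
HES6: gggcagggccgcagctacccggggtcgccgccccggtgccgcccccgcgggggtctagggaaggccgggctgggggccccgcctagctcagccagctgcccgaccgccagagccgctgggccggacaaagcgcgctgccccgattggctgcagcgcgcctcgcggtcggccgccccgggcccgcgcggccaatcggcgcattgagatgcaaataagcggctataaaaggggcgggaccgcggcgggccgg
The HES1 window held TGGGAA in forward orientation at 84 to 79 and at 70 to 65 bases before the start, and TGTGAA in reverse orientation at 62 to 57 bases before it. Neither motif occurred in the windows of the other 6 genes. Over 35116 promoter windows of the same length, 20.8% held TGGGAA, 11.0% held TGTGAA and 29.4% held at least 1 of them, on either strand. GCGTG, the core letters bound by AhR with its partner ARNT, occurred 2 times in the HES1 window, 2 times in NOTCH1, 3 times in JAG1 and 1 time in NOTCH3, and not in HES6, NOTCH2 or MAML2, while 32.2% of all windows held it. CACNAG, letters bound by HES repressors, occurred 3 times in HES1, 2 times in MAML2 and 1 time in NOTCH3, and 32.0% of all windows held it. The CACNAG match of HES1 nearest the start overlaps its TGTGAA by 2 bases. These matches describe letters and not binding.

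The lines differed in which Notch genes they expressed before any AhR shRNA. Per kilobase of exon, the most abundant member in BE2C controls was HEY1 (14.9 ± 1.37 CPM per kb, mean ± SD, n = 3, where CPM are counts scaled to the library size), followed by DLL3 (8.85 ± 0.437), HES6 (5.74 ± 0.638), HES1 (4.52 ± 0.366) and MAML2 (1.01 ± 0.237). DLL1, NOTCH3, JAG1, NOTCH2 and NOTCH1 were each below 0.2 CPM per kb in BE2C controls. In Kelly controls the order was DLL3 (11.3 ± 0.870 CPM per kb), HES6 (7.09 ± 1.24), HEY1 (4.43 ± 0.423), NOTCH3 (3.02 ± 0.144) and MAML2 (1.18 ± 0.0728), with HES1 sixth at 0.491 ± 0.101. Of the 10 members, 3 were higher and 5 lower in BE2C controls than in Kelly controls, where 76.2% of the 17136 genes tested were called, 37.2% higher and 39.0% lower. Line and count table cannot be told apart in this comparison.

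NOTCH3, the receptor linked with the mesenchymal state, was abundant in Kelly controls and scarce in BE2C controls. Its level was 0.897, 1.02 and 0.984 CPM in BE2C pLKO-GFP and 29.6, 26.9 and 28.6 CPM in Kelly pLKO-GFP, a log2 difference of -4.96 ± 0.13 (SE; adjusted p = 2.34e-34, edgeR quasi-likelihood test with Benjamini-Hochberg adjustment over all genes, as for every adjusted p here). NOTCH1 went the other way, with 16, 10 and 8 counts in BE2C and 2, 0 and 0 in Kelly controls, a rate ratio of 18.9 with an exact 95% interval of 4.84 to 162 that covers counting error only. Whether both mates of a read pair were counted is unknown, and with counts halved, an alternative chosen after seeing the data, the interval was 2.96 to 789. HES1 and HEY1, the repressors, were both higher in BE2C controls. HES1 stood at 8.59, 9.28 and 10.1 CPM in BE2C against 0.831, 0.966 and 1.24 CPM in Kelly (log2 difference 3.12 ± 0.17, adjusted p = 1.08e-21), and HEY1 at 52.9, 44.1 and 47.9 CPM against 14.1, 15.8 and 13.1 CPM (1.66 ± 0.063, adjusted p = 5.27e-28). JAG1, a ligand, was lower in BE2C, at 0.974, 0.349 and 0.440 CPM against 2.13, 2.05 and 2.26 CPM (-1.95 ± 0.29, adjusted p = 5.59e-08). For these 5 genes, and also for DLL3, HES6 and NOTCH2, no control library of one line overlapped those of the other. The share of all genes without such overlap was not counted, so this describes single genes and not the members as a set. DLL3 (-0.44 ± 0.067) and HES6 (-0.40 ± 0.10, and -0.24 without Kelly pLKO-GFP replicate 1) were modestly lower in BE2C. MAML2 was called lower (-0.32 ± 0.12, adjusted p = 0.0167) but lost the call without BE2C pLKO-GFP replicate 2 (adjusted p = 0.298), without Kelly pLKO-GFP replicate 1 (0.0767) and under 3 other settings. NOTCH2 (0.48 ± 0.36) and DLL1 (-0.78 ± 0.40) were not called, and DLL1 was called without BE2C pLKO-GFP replicate 2 (adjusted p = 0.0214).

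In BE2C, all 10 members were called with shAhR-2 and 3 with shAhR-1. With shAhR-2, all 3 receptors, DLL1, JAG1, MAML2, HES1 and HEY1 rose, and DLL3 and HES6 fell, so that all 10 members were called where 75.1% of the 15732 genes tested were, 38.0% higher and 37.2% lower. The median log2 fold change of the 10 members was 1.42, against 0.03 over all genes tested, and their median size was 1.42 against 0.59. The members were chosen with earlier results of these data known, so these counts and medians describe the 10 members alone. Over the 54 tested of 71 other pathway genes, the median with shAhR-2 was 0.10. With shAhR-1, MAML2 rose and NOTCH3 and HES1 fell, 3 of 10 members where 52.3% of genes were called (25.2% higher and 27.1% lower), and the median log2 fold change was 0.01, against 0.01 over all genes tested. Both comparisons used the same 3 control libraries, and the loss of AHR was not tested in BE2C with either shRNA.

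**Figure D1:**
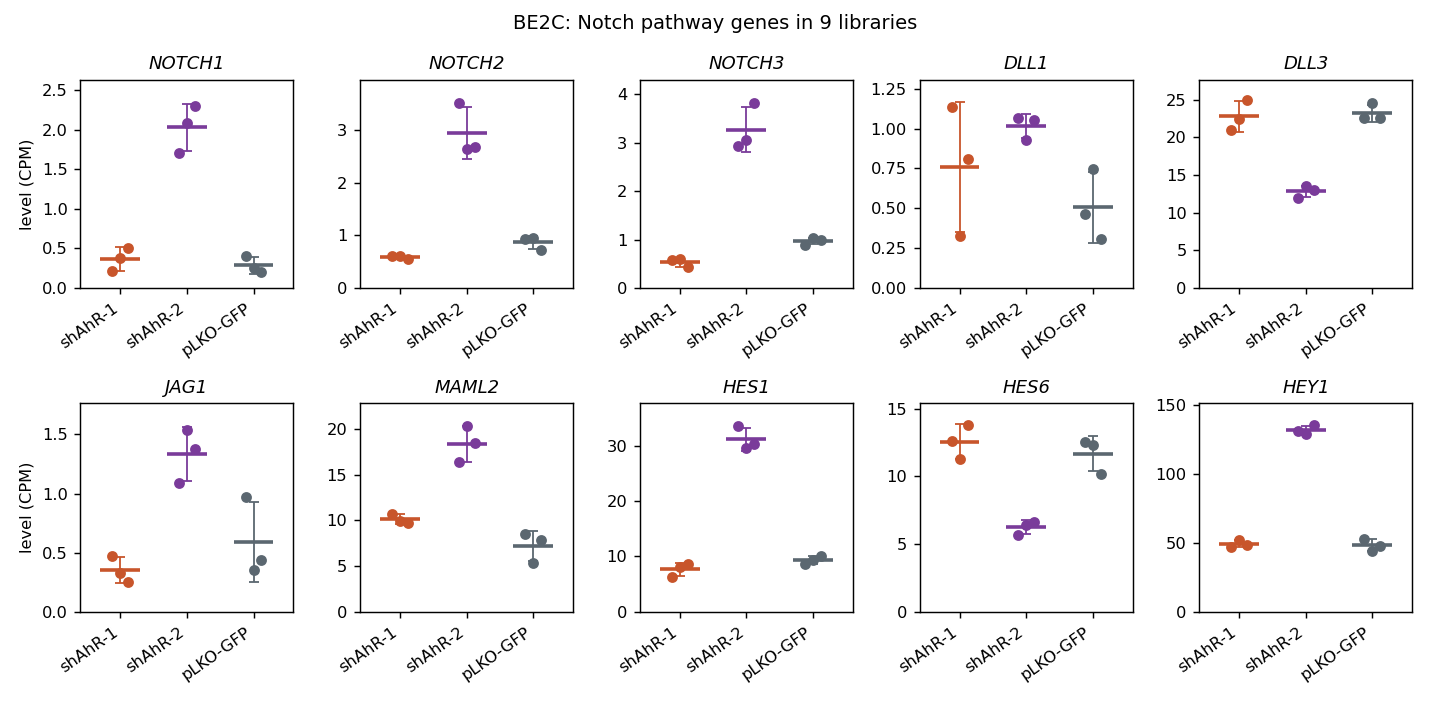
Level of each Notch pathway gene in the 9 BE2C libraries, in CPM (linear axis starting at 0); points are libraries, the line is the mean and the bar is the SD over 3 libraries. In the shAhR-2 group HES1 stands at 33.5, 29.6 and 30.4 CPM, above all shAhR-1 and pLKO-GFP libraries, and DLL3 and HES6 sit below all of them.

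The 3 receptors were scarce in BE2C controls and rose with shAhR-2. NOTCH1 had 0.213, 0.383 and 0.507 CPM in the shAhR-1 libraries, 1.71, 2.08 and 2.30 CPM in shAhR-2 and 0.410, 0.249 and 0.207 CPM in pLKO-GFP. Every shAhR-2 library lay above every other one, with a log2 fold change of 2.82 ± 0.38 (adjusted p = 5.55e-08), and shAhR-1 overlapped the controls (0.35 ± 0.45, adjusted p = 0.549). NOTCH2 had 0.616, 0.602 and 0.557 CPM with shAhR-1, 3.51, 2.63 and 2.67 CPM with shAhR-2 and 0.923, 0.948 and 0.725 CPM in controls. It rose with shAhR-2 (1.77 ± 0.26, adjusted p = 2.75e-07), and all 3 shAhR-1 libraries lay below the controls without passing the test (-0.54 ± 0.30, adjusted p = 0.143). NOTCH3 was called with both shRNAs, in opposite directions: its level was 0.569, 0.602 and 0.431 CPM with shAhR-1, 2.94, 3.06 and 3.81 CPM with shAhR-2 and 0.897, 1.02 and 0.984 CPM in controls. Its log2 fold change was -0.85 ± 0.30 with shAhR-1 (adjusted p = 0.0167) and 1.77 ± 0.25 with shAhR-2 (adjusted p = 1.02e-07). The fall with shAhR-1 lost its call without shAhR-1 replicate 3 (adjusted p = 0.0631) and in a fit of those 2 groups alone (0.0512).

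Among the ligands, DLL3 moved against DLL1 and JAG1. DLL1, a ligand that activates receptors on neighbouring cells, had 1.14, 0.328 and 0.811 CPM with shAhR-1, 1.07, 0.929 and 1.05 CPM with shAhR-2 and 0.462, 0.748 and 0.311 CPM in controls. All 3 shAhR-2 libraries lay above the controls and the rise was called (1.01 ± 0.42, adjusted p = 0.0304), and the call was lost without shAhR-2 replicate 1 (adjusted p = 0.0609), shAhR-2 replicate 3 (0.0656), pLKO-GFP replicate 1 (0.0739) or pLKO-GFP replicate 3 (0.135). JAG1 had 0.474, 0.328 and 0.253 CPM with shAhR-1, 1.09, 1.54 and 1.38 CPM with shAhR-2 and 0.974, 0.349 and 0.440 CPM in controls, and rose with shAhR-2 (1.20 ± 0.39, adjusted p = 0.00674). With shAhR-1 neither DLL1 (0.60 ± 0.43) nor JAG1 (-0.71 ± 0.45) passed the test. DLL3, a divergent ligand that is held inside the cell and does not activate receptors on neighbours, had 21.0, 22.4 and 24.9 CPM with shAhR-1, 12.0, 13.5 and 13.0 CPM with shAhR-2 and 22.5, 24.5 and 22.5 CPM in controls. It fell with shAhR-2 (-0.84 ± 0.079, adjusted p = 2.25e-11), and its difference with shAhR-1 was -0.02 ± 0.076.

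MAML2, a Mastermind-like coactivator of the intracellular domain, was called higher with each shRNA in BE2C, the 1 member of 10 with calls of one sign, where 32.0% of genes had them (14.6% higher and 17.4% lower). It had 10.7, 9.96 and 9.70 CPM with shAhR-1, 16.4, 20.3 and 18.4 CPM with shAhR-2 and 8.46, 5.29 and 7.85 CPM in controls, with no overlap between either shRNA and the controls. The rise was 0.51 ± 0.12 with shAhR-1 (adjusted p = 7.07e-04) and 1.37 ± 0.12 with shAhR-2 (adjusted p = 1.85e-12). Without pLKO-GFP replicate 2, the lowest control, the shAhR-1 value was 0.33 (adjusted p = 0.0133).

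Of the HES and HEY genes, HES1 and HEY1 rose with shAhR-2 and HES6 fell. HES1, which represses proneural genes, had 6.26, 8.07 and 8.61 CPM with shAhR-1, 33.5, 29.6 and 30.4 CPM with shAhR-2 and 8.59, 9.28 and 10.1 CPM in controls. In the fit of the 9 BE2C libraries, the shAhR-2 level was 3.38 times that of controls (log2 fold change 1.76 ± 0.093, adjusted p = 8.67e-18). The lower value with shAhR-1 was called (-0.28 ± 0.10, adjusted p = 0.0242), but 1 shAhR-1 library lay just above the lowest control, and the call was lost without shAhR-1 replicate 1 (adjusted p = 0.218) or pLKO-GFP replicate 3 (0.125). HEY1, a related repressor whose gene lies on the minus strand at chr8:79764010-79767863, had 47.3, 52.5 and 48.4 CPM with shAhR-1, 131, 129 and 136 CPM with shAhR-2 and 52.9, 44.1 and 47.9 CPM in controls. It rose with shAhR-2 (1.47 ± 0.050, adjusted p = 3.49e-23) and overlapped the controls with shAhR-1 (0.04 ± 0.052). HES6, a family member that in mouse counteracts HES1 and favours neuronal differentiation, had 12.6, 11.3 and 13.8 CPM with shAhR-1, 5.64, 6.43 and 6.61 CPM with shAhR-2 and 12.6, 12.3 and 10.2 CPM in controls. Its log2 fold change was -0.89 ± 0.11 with shAhR-2 (adjusted p = 7.88e-09) and 0.12 ± 0.10 with shAhR-1, where the libraries overlapped.

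Markers of other cell types were read in BE2C with both shRNAs. In BE2C, the summed level of 10 Schwann cell and glial markers was 2.90 to 4.33 CPM with shAhR-1, 22.1 to 26.9 CPM with shAhR-2 and 3.17 to 4.25 CPM in controls. With shAhR-2, 5 of the 7 markers tested rose and none fell, where 38.0% of all genes rose and 37.2% fell, and CDH19 was at 0 in every BE2C library. With shAhR-1, none of the 7 was called. The 12 fibroblast markers summed to 196 to 204 CPM with shAhR-1, 338 to 349 CPM with shAhR-2 and 184 to 189 CPM in controls, with 6 of 9 tested higher and 1 lower with shAhR-2 and COL1A2 at 0 there. With shAhR-1, 4 of the 9 rose and 1 fell. The 16 mesenchymal state genes summed to 224 to 233 CPM with shAhR-1, 412 to 414 CPM with shAhR-2 and 277 to 288 CPM in controls. Of 13 tested, 10 rose with shAhR-2. With shAhR-1, 5 rose and 3 fell (median log2 fold change 0.20), where 25.2% of all genes rose and 27.1% fell. Of these 13 genes, 4 were called higher and 0 lower with both shRNAs, where 14.6% and 17.4% of all genes were. The 7 endothelial markers summed to 3.80 to 4.57, 13.4 to 15.0 and 4.74 to 6.01 CPM in the shAhR-1, shAhR-2 and control libraries, and the 8 leukocyte markers stayed below 1.1 CPM. The 12 adrenergic markers summed to 5478 to 5526 CPM with shAhR-1, 3474 to 3513 CPM with shAhR-2 and 6071 to 6302 CPM in controls, and 9 of 12 fell and 3 rose with shAhR-2. With shAhR-1, 7 of the 12 fell and 3 rose. Calls of one sign with both shRNAs were lower for 6 adrenergic markers and higher for 2, where 17.4% and 14.6% of all genes had them. The part of these genes in the Notch result was not tested. Without BE2C shAhR-2 replicate 1, the library that stood apart, 9 of the 10 members were still called with shAhR-2.

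Set directly against each other, the BE2C shRNAs differed in 9 of the 10 members, where 72.4% of all genes were called, 35.9% higher and 36.5% lower with shAhR-1. MAML2 (-0.86 ± 0.11), NOTCH1 (-2.47 ± 0.37), NOTCH2 (-2.31 ± 0.27), NOTCH3 (-2.62 ± 0.27), JAG1 (-1.92 ± 0.42), HES1 (-2.03 ± 0.10) and HEY1 (-1.43 ± 0.050) were lower with shAhR-1 than with shAhR-2, as log2 differences with SE. DLL3 (0.82 ± 0.079) and HES6 (1.01 ± 0.11) were higher with shAhR-1. DLL1 did not pass the test (-0.41 ± 0.40, adjusted p = 0.365).

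**Figure D2:**
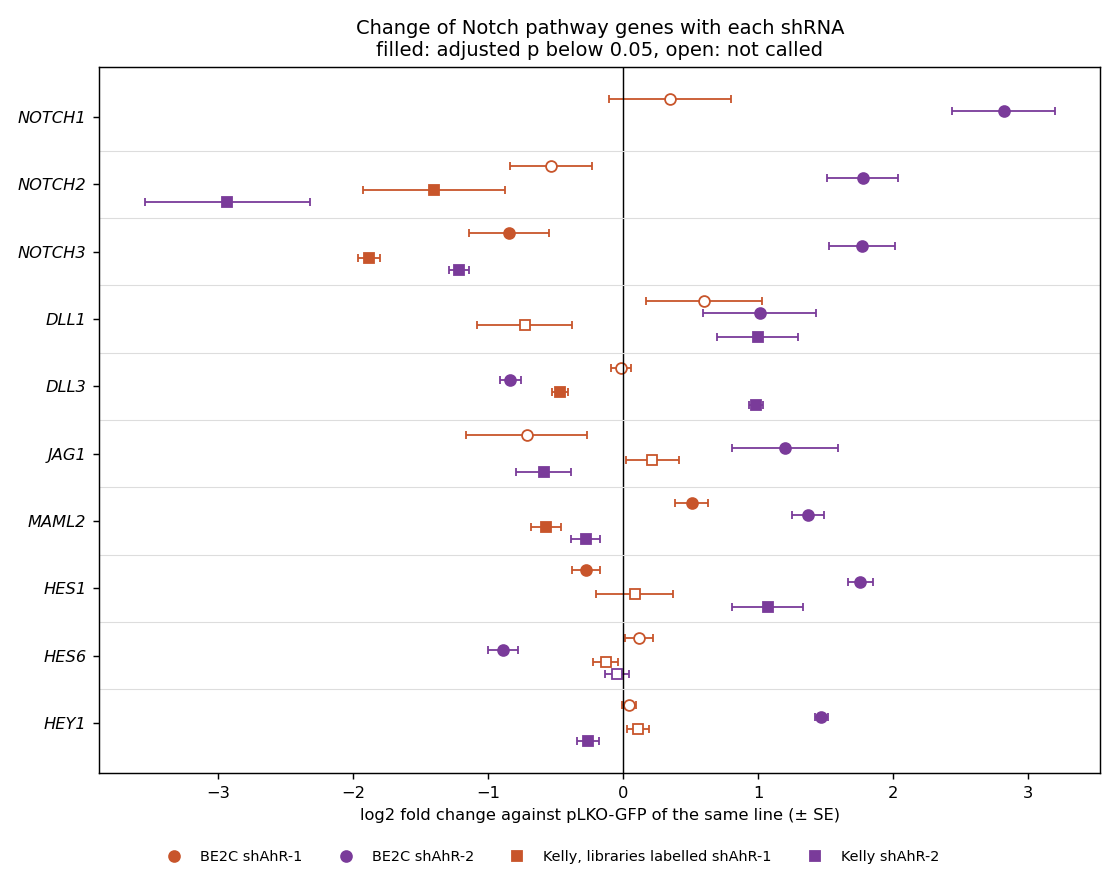
Log2 fold change of each Notch pathway gene with each shRNA against pLKO-GFP of the same line, with SE; circles are BE2C, squares are Kelly, and filled symbols have an adjusted p below 0.05. In BE2C the shAhR-2 symbols lie right of 0 for 8 members, and in Kelly NOTCH2, NOTCH3 and MAML2 lie left of 0 with both labels.

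In Kelly, NOTCH3, NOTCH2 and MAML2 fell with both labels, and DLL3 moved in opposite directions. The filter on low counts left 9 members, without NOTCH1. In the libraries labelled shAhR-1, NOTCH2, NOTCH3, DLL3 and MAML2 fell and none rose, 4 of 9 where 60.5% of the 15871 genes tested were called, 29.6% higher and 31.0% lower. With shAhR-2, DLL1, DLL3 and HES1 rose and NOTCH2, NOTCH3, JAG1, HEY1 and MAML2 fell, 8 of 9 where 75.4% of genes were called, 37.2% higher and 38.2% lower. The median log2 fold change of the members was -0.47 in the libraries labelled shAhR-1 and -0.26 with shAhR-2, against 0.003 and -0.01 over all genes. Both comparisons shared their 3 control libraries, and directions for shAhR-1 come from libraries in which AHR overlapped the controls and was not called.

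**Figure D3:**
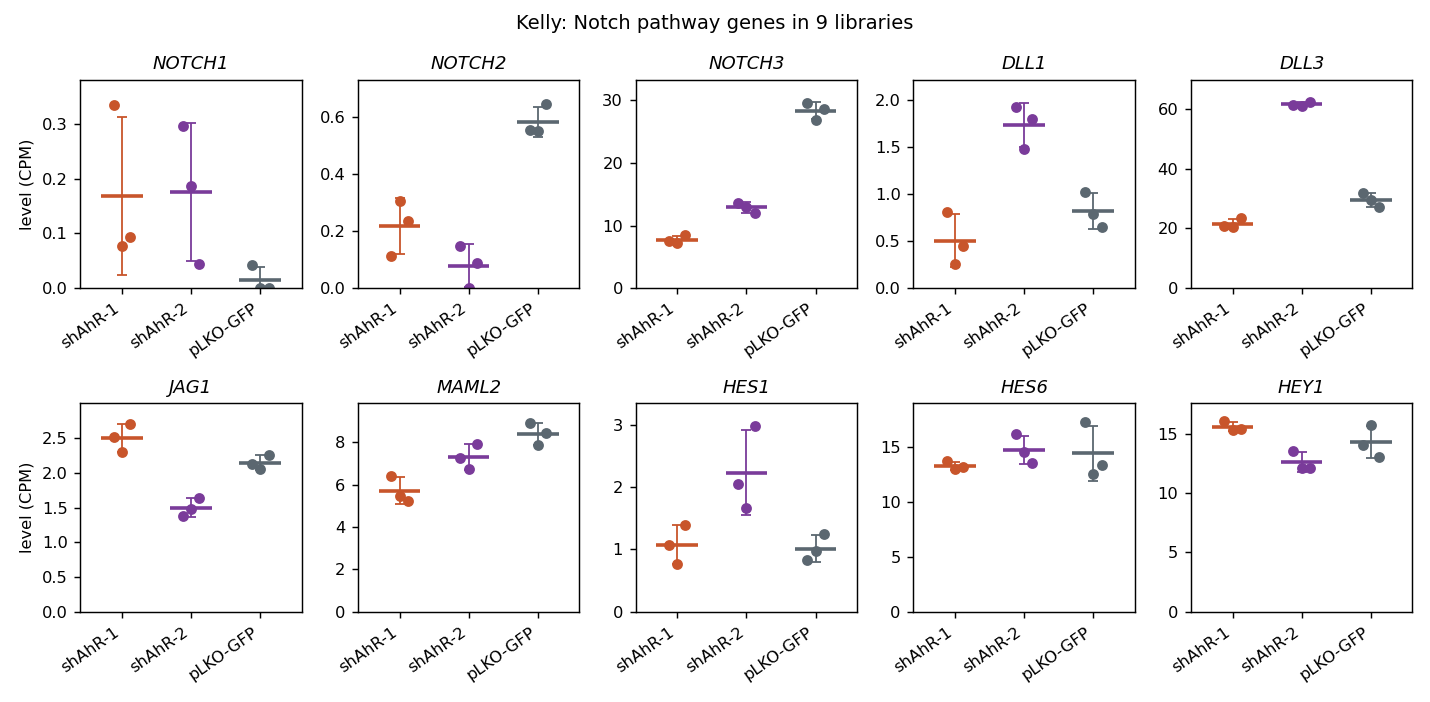
Level of each Notch pathway gene in the 9 Kelly libraries, in CPM (linear axis starting at 0); points are libraries, the line is the mean and the bar is the SD over 3 libraries. NOTCH3 lies below every pLKO-GFP library in all 6 shRNA libraries, and DLL3 is highest in the 3 shAhR-2 libraries.

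NOTCH3 was the abundant receptor of Kelly and fell with both labels. Its level was 7.47, 7.24 and 8.49 CPM in the libraries labelled shAhR-1, 13.7, 13.0 and 12.0 CPM with shAhR-2 and 29.6, 26.9 and 28.6 CPM in controls. The 3 groups did not overlap, and the log2 fold change was -1.88 ± 0.080 in the libraries labelled shAhR-1 (adjusted p = 1.23e-26) and -1.21 ± 0.074 with shAhR-2 (adjusted p = 1.08e-20). NOTCH2 was low throughout, with 4, 12 and 10 counts in the libraries labelled shAhR-1, 6, 0 and 4 with shAhR-2 and 26, 24 and 26 in controls. It fell in both comparisons (-1.40 ± 0.52, adjusted p = 0.0184, and -2.93 ± 0.61, adjusted p = 2.91e-05). The first call was lost without shAhR-1 replicate 1 (adjusted p = 0.104) or pLKO-GFP replicate 3 (0.0582), and the second was -3.68 without shAhR-2 replicate 1. NOTCH1 had 12, 3 and 4 counts in the libraries labelled shAhR-1, 12, 8 and 2 with shAhR-2 and 2, 0 and 0 in controls. The pooled rate ratio was 10.6 (exact 95% interval 2.55 to 93.7) in the libraries labelled shAhR-1 and 11.2 (2.74 to 97.8) with shAhR-2, for counting error only, and with counts halved the intervals were 1.58 to 483 and 1.62 to 480.1.

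DLL3, the divergent ligand, moved in opposite directions in Kelly. It had 20.9, 20.4 and 23.4 CPM in the libraries labelled shAhR-1, 61.5, 61.1 and 62.6 CPM with shAhR-2 and 31.9, 29.5 and 27.4 CPM in controls, with no overlap between groups. The log2 fold change was -0.47 ± 0.059 (adjusted p = 1.22e-09) in the libraries labelled shAhR-1 and 0.98 ± 0.054 with shAhR-2 (adjusted p = 1.49e-22), so the shAhR-2 level was 1.97 times that of controls. DLL1 had 0.811, 0.256 and 0.447 CPM in the libraries labelled shAhR-1, 1.92, 1.47 and 1.80 CPM with shAhR-2 and 1.02, 0.782 and 0.645 CPM in controls. It rose with shAhR-2 (1.00 ± 0.30, adjusted p = 0.00265). The value in the libraries labelled shAhR-1 was not called (-0.73 ± 0.35, adjusted p = 0.0687), and was called without shAhR-1 replicate 1 (adjusted p = 0.00836) or pLKO-GFP replicate 3 (0.0460). JAG1 had 2.52, 2.30 and 2.70 CPM in the libraries labelled shAhR-1, 1.38, 1.47 and 1.64 CPM with shAhR-2 and 2.13, 2.05 and 2.26 CPM in controls. The shAhR-2 libraries lay below all controls (-0.59 ± 0.20, adjusted p = 0.00822), and those labelled shAhR-1 lay above them without passing the test (0.22 ± 0.19, adjusted p = 0.347).

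The coactivator fell in Kelly and rose in BE2C. MAML2 had 6.43, 5.47 and 5.22 CPM in the libraries labelled shAhR-1, 7.25, 6.74 and 7.93 CPM with shAhR-2 and 8.90, 7.87 and 8.44 CPM in controls. The shAhR-2 libraries overlapped the controls, and those labelled shAhR-1 lay below them. The change was -0.57 ± 0.11 in the libraries labelled shAhR-1 (adjusted p = 1.56e-05) and -0.28 ± 0.11 with shAhR-2 (adjusted p = 0.0187), which lost its call without shAhR-2 replicate 2 (adjusted p = 0.0944) or pLKO-GFP replicate 1 (0.0795). With NOTCH2 and NOTCH3 it makes 3 of 9 members lower in both Kelly comparisons, where 27.2% of genes had calls of one sign, 12.9% higher and 14.3% lower.

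Among the HES and HEY genes in Kelly, HES1 rose with shAhR-2. It had 1.06, 0.767 and 1.39 CPM in the libraries labelled shAhR-1, 2.05, 1.66 and 2.98 CPM with shAhR-2 and 0.831, 0.966 and 1.24 CPM in controls, with the shAhR-2 libraries above all others. The log2 fold change was 1.07 ± 0.26 with shAhR-2 (adjusted p = 2.92e-04) and 0.09 ± 0.29 in the libraries labelled shAhR-1. HEY1 had 16.1, 15.3 and 15.4 CPM in the libraries labelled shAhR-1, 13.6, 12.1 and 12.2 CPM with shAhR-2 and 14.1, 15.8 and 13.1 CPM in controls. It was called lower with shAhR-2 (-0.26 ± 0.081, adjusted p = 0.00355) although the groups overlapped, and the call was lost without pLKO-GFP replicate 2 (adjusted p = 0.0510). HES6 overlapped the controls in both comparisons, with 13.8, 13.0 and 13.2 CPM in the libraries labelled shAhR-1, 16.2, 14.6 and 13.6 CPM with shAhR-2 and 17.3, 12.6 and 13.4 CPM in controls (-0.13 ± 0.090 and -0.05 ± 0.088), and the first was called without pLKO-GFP replicate 2 (adjusted p = 0.0364).

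Markers of other cells were read in Kelly as well. Schwann cell and glial markers summed to 4.05 to 4.40 CPM in the libraries labelled shAhR-1, 15.4 to 16.3 CPM with shAhR-2 and 8.08 to 9.65 CPM in controls, and of 7 tested, none rose and 2 fell in the libraries labelled shAhR-1, where 29.6% of all genes rose and 31.0% fell, and 4 rose and 1 fell with shAhR-2, where 37.2% rose and 38.2% fell. Adrenergic markers summed to 5612 to 5756, 7034 to 7070 and 9959 to 10671 CPM in the same order of groups, and fibroblast markers to 121 to 133, 122 to 125 and 143 to 146 CPM. Of 12 adrenergic markers, 3 rose and 6 fell in the libraries labelled shAhR-1, and 4 rose and 8 fell with shAhR-2. Of 8 fibroblast markers tested, 3 rose and 3 fell in the libraries labelled shAhR-1, and 2 rose and 4 fell with shAhR-2. Mesenchymal state genes summed to 341 to 361 CPM in the libraries labelled shAhR-1, 218 to 223 CPM with shAhR-2 and 258 to 267 CPM in controls, with 5 of 9 tested higher and 3 lower in the libraries labelled shAhR-1, and 2 higher and 7 lower with shAhR-2. Endothelial markers summed to 11.7 to 12.8 CPM in the libraries labelled shAhR-1, 16.9 to 17.4 CPM with shAhR-2 and 18.4 to 21.9 CPM in controls, and of 4 tested, none rose and 3 fell in the libraries labelled shAhR-1, and 1 rose and 3 fell with shAhR-2. CDH19 was at 0 in every Kelly library. Their part in the values above was not tested.

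Against each other, the Kelly labels differed in 8 of 9 members, where 77.4% of genes were called, 39.3% higher and 38.2% lower in the libraries labelled shAhR-1. NOTCH2 (1.53 ± 0.70), JAG1 (0.81 ± 0.20) and HEY1 (0.37 ± 0.082) were higher in the libraries labelled shAhR-1 than with shAhR-2. NOTCH3 (-0.67 ± 0.084), DLL1 (-1.73 ± 0.33), DLL3 (-1.45 ± 0.056), HES1 (-0.99 ± 0.26) and MAML2 (-0.30 ± 0.11) were lower. HES6 did not pass the test (-0.08 ± 0.090, adjusted p = 0.404). The NOTCH2 call (adjusted p = 0.0445) was lost in 7 of the 9 fits that left out 1 library (adjusted p 0.0529 to 0.226), all but those without shAhR-1 replicate 1 or shAhR-2 replicate 1, and without shAhR-2 replicate 1 the value was 2.28. The MAML2 call was lost without shAhR-1 replicate 2 (0.0583), shAhR-1 replicate 3 (0.0940) or shAhR-2 replicate 3 (0.0969).

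No member had a call of one sign in all 4 comparisons of an shRNA with its control. The count was 0 with edgeR's quasi-likelihood test at an adjusted p, 0 at an unadjusted p under 0.05 and 0 with DESeq2, and 15.2% of 14680 genes met the edgeR rule, 6.34% higher and 8.88% lower. The difference between the lines in each shRNA's effect was tested with an interaction term over all 18 libraries. For shAhR-2, 8 of 10 members differed, 6 with a higher value in BE2C and 2 with a lower one, where 54.7% of genes did (28.8% and 25.8%). For shAhR-1, 3 of 10 differed, each with a higher value in BE2C, where 35.7% of genes did (17.5% and 18.2%).

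**Figure D4:**
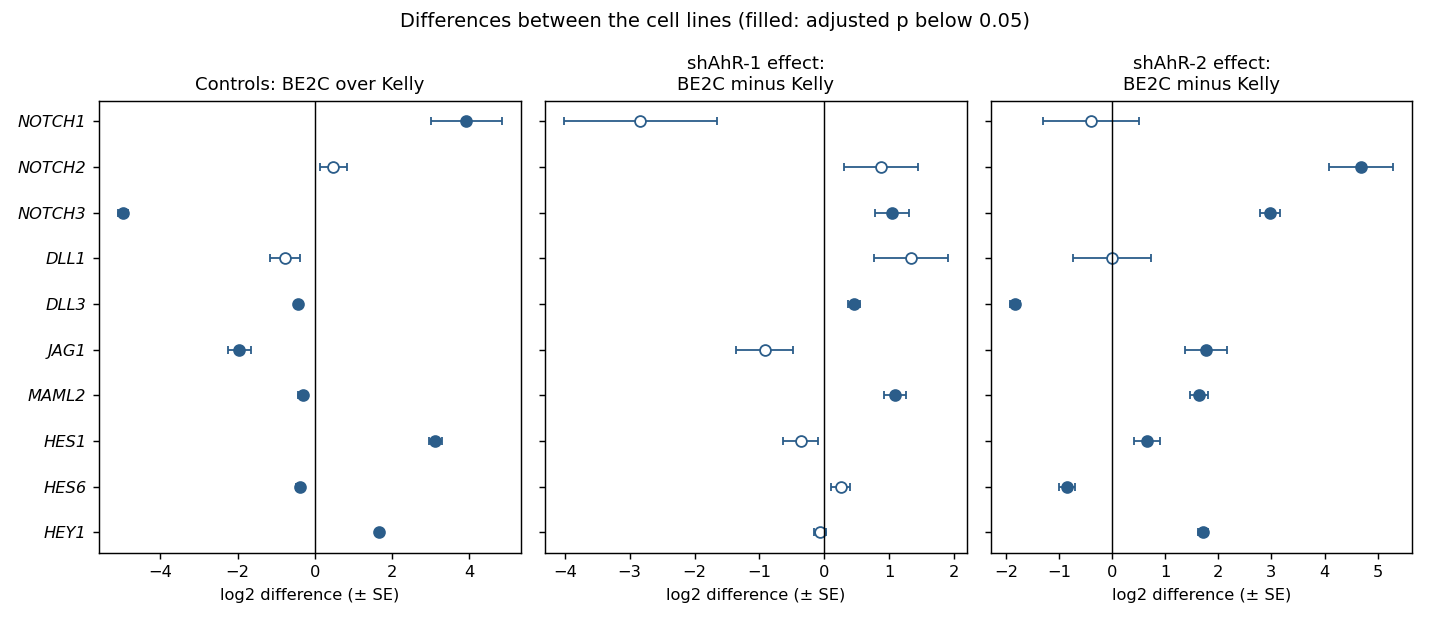
Differences between the lines for each Notch pathway gene, as log2 values with SE, with filled symbols for an adjusted p below 0.05. The left panel sets BE2C controls against Kelly controls. The middle and right panels show the effects of shAhR-1 and shAhR-2, as log2 fold change in BE2C minus log2 fold change in Kelly. NOTCH2, NOTCH3, JAG1, HES1, HEY1 and MAML2 lie right of 0 for shAhR-2, and DLL3 and HES6 lie left of it.

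With shAhR-2, the receptors NOTCH2 and NOTCH3 differed between the lines: the effect in BE2C exceeded that in Kelly by 4.69 ± 0.60 for NOTCH2 (adjusted p = 4.10e-09) and by 2.97 ± 0.19 for NOTCH3 (7.55e-19), as log2 values with SE. NOTCH2 stood at 5.42 without Kelly shAhR-2 replicate 1. The differences were 1.77 ± 0.40 for JAG1, 1.71 ± 0.090 for HEY1, 1.63 ± 0.16 for MAML2 and 0.66 ± 0.25 for HES1 on the side of BE2C, and -1.84 ± 0.10 for DLL3 and -0.86 ± 0.15 for HES6 on the side of Kelly. HES1 (adjusted p = 0.0206) lost its call without Kelly pLKO-GFP replicate 3 (adjusted p = 0.144), Kelly shAhR-2 replicate 1 (0.0548) or Kelly shAhR-2 replicate 2 (0.106); it rose with shAhR-2 in both lines. DLL3 fell with shAhR-2 in BE2C and rose with it in Kelly. For shAhR-1, MAML2 (1.09 ± 0.17, adjusted p = 1.14e-06), NOTCH3 (1.04 ± 0.27, 0.00151) and DLL3 (0.46 ± 0.10, 1.46e-04) differed. In fits that left out 1 library, NOTCH1, DLL1 and JAG1 were also called for shAhR-1, in 6, 3 and 1 of them. NOTCH1, whose difference has the other sign (-2.84 ± 1.18, adjusted p = 0.0556), was called without BE2C pLKO-GFP replicate 3, BE2C shAhR-1 replicate 3, Kelly pLKO-GFP replicate 1, Kelly shAhR-1 replicate 2 or 3 or Kelly shAhR-2 replicate 3 (adjusted p 0.0200 to 0.0464), with values of -5.47 to -1.92 over all such fits, and it was also called with DESeq2 (0.0416), with no filter (0.0372) and with the replicate block (0.0380). The Kelly side of this NOTCH1 difference lies near the limit of detection. It rests on 12, 3 and 4 counts in the libraries labelled shAhR-1 and 2, 0 and 0 in controls. NOTCH1 did not pass the count filter in the fit of Kelly alone. DLL1 was called without BE2C pLKO-GFP replicate 2, BE2C shAhR-1 replicate 2 or Kelly shAhR-1 replicate 1 (0.0150 to 0.0234), and JAG1 without BE2C pLKO-GFP replicate 2 (0.0342).

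Across all 6 groups, the order of levels of NOTCH3 ran from Kelly pLKO-GFP, Kelly shAhR-2 and the Kelly libraries labelled shAhR-1 down to BE2C shAhR-2, BE2C pLKO-GFP and BE2C shAhR-1, and no neighbouring groups overlapped. HES1 ran BE2C shAhR-2, BE2C pLKO-GFP, BE2C shAhR-1, Kelly shAhR-2, the Kelly libraries labelled shAhR-1 and Kelly pLKO-GFP, where BE2C pLKO-GFP and BE2C shAhR-1 overlapped, as did the last pair. HEY1 had the 3 BE2C groups above the 3 Kelly groups, and BE2C shAhR-2 alone was clear of its neighbour within the line. DLL3 was highest in Kelly shAhR-2 and lowest in BE2C shAhR-2, and the BE2C pLKO-GFP, BE2C shAhR-1 and Kelly shAhR-1 labels between them overlapped. HES6 overlapped between neighbours in all groups except BE2C shAhR-2, which lay below the rest. MAML2 was highest in BE2C shAhR-2, then BE2C shAhR-1, and the 4 groups below overlapped from one to the next.

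The other genes of the pathway were read from a list of 71, of which 54 were tested in BE2C and 59 in Kelly. In BE2C, 15 rose and 17 fell with shAhR-1 (median log2 fold change 0.01), and 27 rose and 19 fell with shAhR-2 (0.10), where 25.2% and 27.1% of all genes tested rose and fell with shAhR-1 and 38.0% and 37.2% with shAhR-2. In Kelly, 22 rose and 24 fell in the libraries labelled shAhR-1 (median 0.04), and 33 rose and 16 fell with shAhR-2 (0.21), where the shares over all genes were 29.6% and 31.0%, and 37.2% and 38.2%. The medians over all genes tested were 0.01, 0.03, 0.003 and -0.01 in the same order. HES4 was at 0 in the Kelly libraries labelled shAhR-1, and with its fold set to what 3 counts in that group would give, the Kelly median was again 0.04. Of 13 genes of receptor turnover and inhibition tested, 4 rose and 4 fell with shAhR-1 in BE2C, 11 rose and 1 fell with shAhR-2 in BE2C, 6 rose and 4 fell in the Kelly libraries labelled shAhR-1, and 8 rose and 1 fell with shAhR-2 in Kelly. Of 11 corepressor genes, the counts in the same order were 5 and 3, 4 and 6, 6 and 2, and 5 and 4. The shares of all genes that rose and fell, given above, are the background of these counts.

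Of the 54 other pathway genes tested in BE2C, 9 were called higher and 7 lower with both shRNAs, where 14.6% and 17.4% of all genes were. Of the 59 tested in Kelly, 13 were called higher and 6 lower with both, where 12.9% and 14.3% of all genes were. The genes named next were picked from these by size, so they do not describe the list. TLE2, a Groucho-type corepressor that HES proteins recruit, rose with both shRNAs in both lines. It had 21.3, 19.8 and 19.3 CPM in BE2C shAhR-1, 52.2, 48.0 and 46.4 CPM in BE2C shAhR-2 and 9.69, 9.76 and 9.37 CPM in BE2C controls (log2 fold change 1.08 ± 0.074 and 2.36 ± 0.071). In Kelly it had 15.1, 14.9 and 14.8 CPM in the libraries labelled shAhR-1, 34.4, 37.8 and 36.5 CPM with shAhR-2 and 5.28, 5.66 and 6.06 CPM in controls (1.39 ± 0.082 and 2.60 ± 0.076). JAG2, a second Jagged ligand, rose in the same 4 comparisons, by 0.45 ± 0.10, 1.48 ± 0.093, 0.47 ± 0.043 and 0.89 ± 0.042. DLK1, a ligand-like protein that lacks the DSL domain of the activating ligands, fell in all 4: its log2 fold change was -0.51 ± 0.031 and -1.42 ± 0.032 in BE2C and -0.92 ± 0.029 and -2.13 ± 0.030 in Kelly.

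The naming rule picked further genes because they were called the same way with both shRNAs in a line. In BE2C, DTX1, a Deltex ubiquitin ligase that acts on Notch, rose (0.52 ± 0.17 and 2.81 ± 0.15) and NEURL1B, a ligase that acts on ligands, fell (-1.10 ± 0.090 and -0.50 ± 0.086). In Kelly, NEUROD1, a neuronal differentiation factor, rose (0.74 ± 0.10 and 0.65 ± 0.094), as did CDK8, a kinase of the intracellular domain (0.56 ± 0.041 and 1.03 ± 0.040), and POFUT1, which adds O-fucose to Notch, fell (-0.21 ± 0.047 and -0.14 ± 0.046). NEURL1B was also called lower with both shRNAs in Kelly, and CDK8 was also called higher with both in BE2C. HDAC1, a histone deacetylase of corepressor complexes, fell in both lines (-0.46 ± 0.044 and -0.80 ± 0.045 in BE2C, and -0.43 ± 0.038 and -0.97 ± 0.038 in Kelly). RBPJ, the DNA-binding partner, had a log2 fold change of 0.03 ± 0.037 (not called) and -0.42 ± 0.037 in BE2C, and 0.12 ± 0.032 and -0.11 ± 0.032 in Kelly. MAML1, the paralogue of MAML2, fell with shAhR-2 in both lines (-0.67 ± 0.10 in BE2C and -0.81 ± 0.10 in Kelly), and its shAhR-1 values missed the threshold (-0.04 ± 0.10 and 0.12 ± 0.095).

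**Figure D5:**
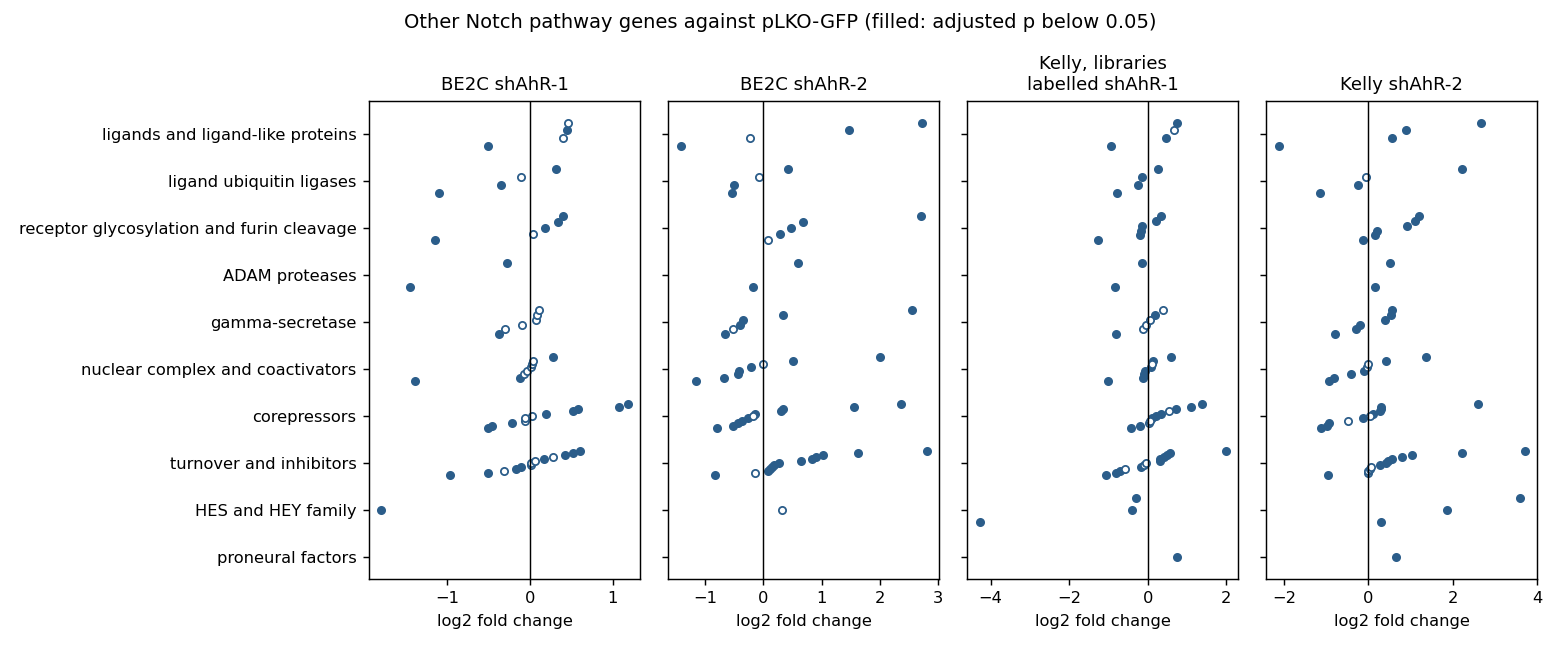
Tested genes of the rest of the Notch pathway, grouped by role, 1 point a gene, as log2 fold change against pLKO-GFP of the same line, with filled points for an adjusted p below 0.05 and a separate horizontal scale in each panel. Genes lie on both sides of 0 in every panel.

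ADAM10, NRARP and HEYL were singled out after their values were seen. ADAM10, the protease of the first receptor cut, had 67.0, 69.4 and 67.4 CPM in BE2C shAhR-1, 274, 277 and 288 CPM in BE2C shAhR-2 and 184, 189 and 187 CPM in BE2C controls. It fell with shAhR-1 and rose with shAhR-2 in BE2C (-1.45 ± 0.034 and 0.60 ± 0.032), and the same signs were seen in Kelly (-0.83 ± 0.035 and 0.50 ± 0.033). NRARP, a Notch-induced inhibitor of the pathway, fell with shAhR-1 in BE2C (-0.51 ± 0.14) and in the Kelly libraries labelled shAhR-1 (-1.06 ± 0.060), and its shAhR-2 values missed the threshold (-0.14 ± 0.14 and 0.04 ± 0.055). HEYL, a further Notch effector, fell in both shAhR-1 comparisons (-1.79 ± 0.24 and -0.40 ± 0.074), rose with shAhR-2 in Kelly (0.29 ± 0.070) and missed the threshold with shAhR-2 in BE2C (0.31 ± 0.21). Between the controls of the lines, DTX3L (6.62 ± 0.32), DTX4 (3.38 ± 0.23) and ITCH (1.22 ± 0.037), which act in ubiquitination, were higher in BE2C. MFNG, a Fringe glycosyltransferase (-7.10 ± 0.19), and HES7 (-4.68 ± 0.24) were lower in BE2C, as was NEUROD1, with 0, 2 and 0 counts in BE2C against 362, 290 and 275 in Kelly (rate ratio 0.00240, exact 95% interval 2.90e-04 to 0.00868, for counting error only, and 6.05e-05 to 0.0134 with counts halved). MFNG had 5, 10 and 6 counts in BE2C controls against 1153, 1009 and 902 in Kelly controls. MFNG, HES7 and NEUROD1 did not pass the count filter in the fit of BE2C alone, so the sizes of their differences are uncertain.

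For each member with at least 1 CPM on average in both lines, the genes with the most similar pattern were searched among 9810 genes by Pearson correlation of log2 CPM, centred on each line's mean, over the 18 libraries. The libraries are replicates of 6 groups and share depth and composition, so the values only describe likeness. NOTCH3 was most like SMIM13 (r = 0.960) and SEPTIN6 (0.951), with r between 0.957 and 0.977 for them within each line. DLL3 was most like DESI1 (0.984) and ATP5F1B (0.983). HES1 was most like DENND11 (0.965) and KDM6A (0.963), and MAML2 was most like PBX2 (0.949) and SERTAD3 (0.940, with 0.983 in BE2C and 0.670 in Kelly). HEY1 was most like CSF1 (0.980, with 0.994 in BE2C and 0.719 in Kelly) and DGCR8 (0.976, with 0.988 and 0.666). HES6 was most like CLUH (0.937, with 0.967 in BE2C and 0.553 in Kelly) and EIF2AK1 (0.934, with 0.970 and 0.587).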

How the data were processed

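The authors deposited raw counts for 39368 genes in 2 tables, 1 for each line. Per the labels' protocols, libraries were built from total RNA (miRNeasy kit) after ribosomal RNA depletion (RNA HyperPrep with RiboErase). Per the submitters' processing notes, CASAVA 1.8.2 and STAR 2.7.9a were used with GRCh38.p7. No source used here gives the counting tool or its strand setting. Between 68.3% and 72.5% of counts from 1 to 20 were even per library, and whether both mates of a read pair were counted is unknown.

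Each line was fitted with edgeR 4.0.16 (filterByExpr, TMM, glmQLFit, glmQLFTest) on its 9 libraries, as 3 groups. Comparisons between lines came from 1 fit of all 18 libraries, with the tables joined by gene symbol. A gene counted as called when its adjusted p (Benjamini-Hochberg, over all genes tested) was below 0.05. CPM values use TMM library sizes over all 18 libraries, while fold changes within a line use TMM over its 9 libraries. Small fold changes can therefore differ from the printed CPM. For HES6 in Kelly, mean CPM was 14.8 with shAhR-2 and 14.5 in controls, and the log2 fold change was -0.05. Intervals cover counting error only. DESeq2 1.42.0 was an alternative, beside RLE size factors, other filters, a replicate block, halved counts, leaving out mitochondrially encoded genes and leaving out each library. The edgeR script was tested on simulated data. Alternatives are in the closing section.

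All 10 members are named, with AHR, RBPJ, MAML1 and DLK1, and 1 further gene is not reported here. The rule adds, of the other pathway genes with a mean of at least 1 CPM, the 3 with the largest smaller fold change in each direction with both shRNAs in a line, 3 in each direction between controls, and the 2 genes most alike each member. The members and lists were chosen with earlier results of these data known. Gene locations come from GENCODE release 29.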

Additional observations from a re-analysis of the deposited data

Results flagged for a closer look

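The effect of shAhR-2 differed between the lines, by the interaction term, for 8 members. As the log2 fold change in BE2C minus that in Kelly, the difference was 4.69 ± 0.60 for NOTCH2, 2.97 ± 0.19 for NOTCH3, 1.77 ± 0.40 for JAG1, 0.66 ± 0.25 for HES1, 1.71 ± 0.090 for HEY1 and 1.63 ± 0.16 for MAML2 (± SE). It was -1.84 ± 0.10 for DLL3 and -0.86 ± 0.15 for HES6. NOTCH2, NOTCH3, JAG1, HEY1 and MAML2 were higher than controls in BE2C and lower in Kelly, DLL3 was lower in BE2C and higher in Kelly, and HES1 was higher in both. For HEY1 and MAML2 the Kelly shAhR-2 libraries overlapped the controls, and both Kelly calls were lost in some fits that left out 1 library. HES6 was lower in BE2C and was not called in Kelly.

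The effect of shAhR-1 differed between the lines for NOTCH3 (1.04 ± 0.27), DLL3 (0.46 ± 0.10) and MAML2 (1.09 ± 0.17). NOTCH3 was lower than controls in both lines, and less so in BE2C. In Kelly these values come from libraries labelled shAhR-1, in which AHR overlapped the controls and was not called. In BE2C, AHR had 8, 0 and 0 counts with shAhR-1 and 4, 4 and 6 in controls, and its loss was not tested.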

How the results depend on the processing

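Of 87 fold changes of the members with a test, 61 were called, and 51 of them kept the call under every alternative run. A further 10 lost it under at least 1, 6 not called became called, no called value turned its sign, and 8 not called did; their causes were not tested. Leaving out 1 library at a time, the number of members called was 2 to 3 in BE2C shAhR-1, 9 to 10 in BE2C shAhR-2, 4 to 6 in the Kelly libraries labelled shAhR-1, 8 to 9 in Kelly with shAhR-2, 7 to 8 between controls, 7 to 8 for the shAhR-2 difference between lines, and 3 to 5 for the shAhR-1 difference (5 without BE2C pLKO-GFP replicate 2, 3 as reported).

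Values not called that turned sign when 1 library was left out ranged from -0.10 to 0.029 for DLL3 and -0.016 to 0.11 for HEY1 with shAhR-1 in BE2C. In the Kelly libraries labelled shAhR-1 they ranged from -0.16 to 0.28 for HES1 and -0.22 to 0.020 for HES6, and with shAhR-2 from -0.14 to 0.10 for HES6. For the difference between lines the ranges were -0.13 to 0.0091 for HEY1 with shAhR-1, and -3.04 to 0.18 for NOTCH1 and -0.27 to 0.39 for DLL1 with shAhR-2. With counts halved, the last was 0.012 for DLL1, against -0.0064 as reported.

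Same-numbered libraries did not deviate together (correlations of -0.0161 to 0.0257 in BE2C and -0.0191 to 0.0166 in Kelly), so the numbers were not treated as pairs. With the replicate number as a block, the members called were 3 in BE2C shAhR-1, 10 in BE2C shAhR-2, 4 in the Kelly libraries labelled shAhR-1 and 8 in Kelly with shAhR-2. The block ended the calls of MAML2 between controls (adjusted p = 0.0988) and of NOTCH2 between the Kelly labels (0.0568), and NOTCH1 became called for the shAhR-1 difference (0.0380). The NOTCH2 call was also lost with no filter (0.0585) and with halved counts (0.0524). NOTCH1, NOTCH2, DLL1 and JAG1 had few counts, which limits their precision.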
